A study of Sorghum bicolor with 9 samples.

Results

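The genes described here are the calcium sensors, sensor kinases and calcium transport proteins of sorghum (Sorghum bicolor) leaves. Of the 34366 genes measured, 20947 were deposited with the name of a best-matching Swiss-Prot entry, and that name decided membership. The name had to contain that of a calcium-dependent protein kinase (CDPK), a CBL-interacting protein kinase (CIPK), a calcineurin B-like protein (CBL), calmodulin, a calcium-binding protein of the CML type, a calcium uniporter, a calcium-transporting ATPase or a glutamate receptor (GLR). The rule found 219 genes. They were 41 calmodulin-like proteins, 38 calmodulin-binding proteins or calmodulin-regulated kinases, 37 CIPKs, 36 CDPKs, 24 glutamate receptors, 19 calcium-transporting ATPases, 9 CBLs, 6 calmodulins, 4 calcium uniporters and 5 others. A name is that of a best-matching protein, in most cases from rice (135 genes) or Arabidopsis thaliana (80 genes), so several sorghum genes can share 1 name, and each is told apart by its identifier.

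The study compared leaves at 3 levels of water, with 3 libraries each. Control plants had normal water supply, and the other plants were under mild or severe drought. Total RNA went into strand-specific libraries, and read counts and FPKM (fragments per unit of transcript length and of sequencing depth) were deposited per gene. The genotype, the age of the plants, the soil water reached and the number of plants behind a library are not given in the sources used here. The labels do not tell whether different plants stand behind the libraries of a group, so the p-values measure the spread between these libraries, which may be technical.

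Plant cells keep free calcium low in the cytosol and store it in the vacuole, the endoplasmic reticulum and the wall. Drought, salt, cold, wounding and microbes open channels and give brief calcium signals, which pumps and exchangers then end. Calmodulins, CMLs and CBLs read the signal through EF-hand domains and act on other proteins, among them the CIPKs, which bind CBLs. CDPKs hold the sensor and the kinase in 1 protein. In Arabidopsis, CBL and CIPK pairs control sodium export and potassium uptake, and the calmodulin-binding transcription activators (CAMTA) tie calcium to cold and defence genes.

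The gene tables held 27854146 to 41228478 counts per library, and 20772692 to 38711314 of these fell on the 34366 genes. The members took 0.637% to 0.972% of them. Counts were scaled to library size (CPM) with TMM factors of 0.807 to 1.12. The first principal component of log2 CPM held 28.7% of the variance. On it control 3, mild drought 2 and the first and second severe drought libraries stood apart from the other 5, so that each group was divided. These 4 lay at 75.9, 122.9, 36.7 and 28.7, in that order, and the other 5 from -61.7 to -46.2. On the second component (17.8% of the variance), severe drought 1 lay at -126.9 and the other libraries from -18.4 to 50.2. Of 25 markers of photosynthetic leaf cells (chlorophyll a-b binding proteins and C4 and Rubisco enzymes), 24 had counts, and a chlorophyll a-b binding protein (SORBI_3003G279400) was at 0. Their summed level ranged from 49772 to 76539 CPM in control, 44602 to 68658 in mild drought and 59276 to 111029 in severe drought. Markers of dividing cells (23 of 23 with counts) summed to 107 to 130.3 CPM in control, 96.6 to 129.5 in mild drought and 114.5 to 121.5 in severe drought. Those of root endodermis (3 of 4 with counts, a Casparian strip protein at 0) summed to 13.0 to 27.3, 15.0 to 20.0 and 14.5 to 38.7 CPM, and those of the guard cell lineage (4 of 4) to 20.4 to 48.7, 9.22 to 49.9 and 28.4 to 45.0 CPM, in the same order. Nearly all of the guard cell sum was that of the anion channel SLAC1 (SORBI_3006G186500). Alone it stood at 20.3 to 47.1 CPM in control, 8.76 to 49.9 in mild drought and 28.4 to 44.9 in severe drought. The part of the markers in the results was not tested. In whole leaves fewer cells of a type cannot be told apart from less RNA per cell.

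Of the 219 members, 172 passed the filter on low counts and were tested. The 47 that did not were 19 calmodulin-like proteins, 9 CDPKs, 6 glutamate receptors, 5 CIPKs, 3 calmodulin-binding proteins, 2 ATPases and 1 each of the CBLs, calmodulins and others. A count was present in all 9 libraries for 163 members, and 6 members had none: CIPK12 (SORBI_3003G303400), CML9 (SORBI_3009G179900), a calmodulin (SORBI_3001G112300), CBL3 (SORBI_3004G146400), GLR2.6 (SORBI_3002G208800) and GLR3.1 (SORBI_3004G013200). The mean over 9 libraries was above 10 FPKM for 66 members and below 1 FPKM for 74.

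Per transcript length, the 2 members with the highest levels were CIPKs. CIPK1 (SORBI_3003G139500, chromosome 3, 13562263 to 13567086) led the members with 276 ± 58.6 FPKM in control, 323 ± 106 in mild drought and 240.2 ± 28.8 in severe drought (SD, n = 3 libraries). CIPK21 (SORBI_3002G390100) followed with a mean of 197 FPKM over the 9 libraries. It overlaps SORBI_3002G390200, so its reads may be shared. Among the sensors, Calmodulin-1 (SORBI_3001G390300, chromosome 1, 67667869 to 67671624) stood highest at 62.3 ± 7.56 FPKM in control, 75.3 ± 14.9 in mild drought and 70.1 ± 26.2 in severe drought. CBL2 (SORBI_3008G152800, chromosome 8, 58517448 to 58523171), the name of a sensor that sits at the vacuolar membrane in Arabidopsis, stood at 32.6 ± 5.2 FPKM in control, 22.3 ± 6.17 in mild drought and 22.9 ± 10.8 in severe drought. CML29 (SORBI_3010G241300, chromosome 10, 58299114 to 58300199) was the highest calmodulin-like gene at 32.8 ± 5.06 FPKM in control, 26.4 ± 5.13 in mild drought and 23.4 ± 9.04 in severe drought.

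Among kinases and targets, CDPK28 (SORBI_3008G053300, chromosome 8, 5378368 to 5382772) was the highest CDPK at 26.5 ± 1.84 FPKM in control, 21 ± 4.49 in mild drought and 22.9 ± 2.8 in severe drought. The calmodulin-binding protein 60 B gene (SORBI_3004G181700, chromosome 4, 53444550 to 53460608) stood at 71.3 ± 6.75 FPKM in control, 56.1 ± 14.5 in mild drought and 52.1 ± 1.65 in severe drought, but 19.5% of its counts were those of lncRNA transcripts under the same identifier and it overlaps SORBI_3004G181600. Among transporters, GLR3.5 (SORBI_3010G231300, chromosome 10, 57417517 to 57425072) reached 76.1 ± 21.2 FPKM in control, 59.3 ± 17.3 in mild drought and 49.1 ± 4.74 in severe drought. Calcium-transporting ATPase 10, a pump of the plasma membrane (SORBI_3008G147300, chromosome 8, 58093112 to 58098143), stood at 40.6 ± 9.04 FPKM in control, 32.4 ± 7.13 in mild drought and 28 ± 4.99 in severe drought. The uniporter 2 gene SORBI_3001G203200 (chromosome 1, 18474034 to 18477475), a channel for calcium entry into mitochondria, stood at 21.4 ± 4.52 FPKM in control, 28.6 ± 5.5 in mild drought and 16 ± 0.463 in severe drought. A calmodulin- and calcium-dependent NAD kinase (SORBI_3001G162200, chromosome 1, 13355784 to 13364699), which makes NADP from NAD, was the highest of the other members at 8.93 ± 7.5 FPKM in control, 6.83 ± 1.91 in mild drought and 8.99 ± 4.39 in severe drought. FPKM values were lower in severe drought than in control across all genes, with a median of -0.20 on the log2(FPKM + 1) scale, so conditions are compared in CPM below.

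**Figure D1:**
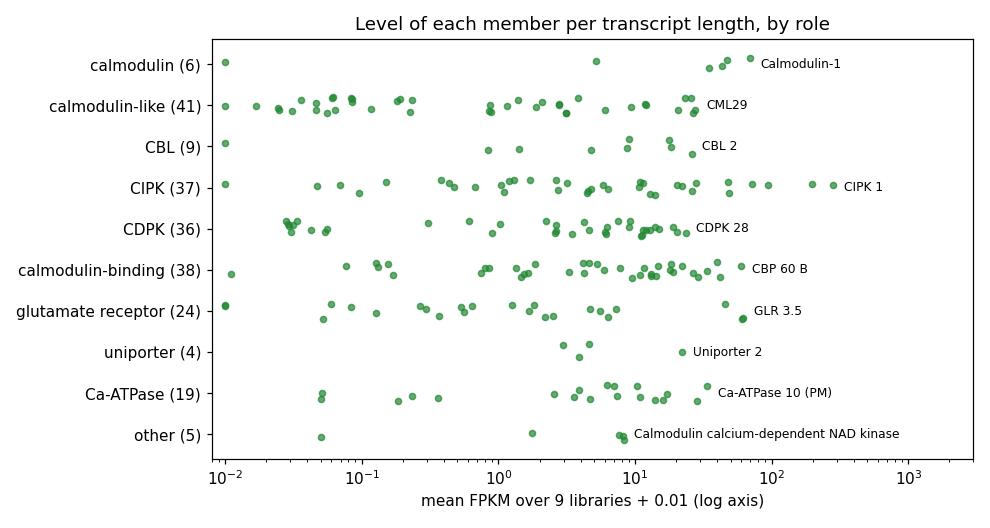
Mean FPKM over 9 libraries of each of the 219 members, by role (number of members in brackets), with 0.01 added and on a log axis. Each point is a gene and the highest of each role is named. CIPK1 lies farthest to the right, and the points at the left end of the calmodulin, calmodulin-like, CBL, CIPK and glutamate receptor rows are genes at 0.

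Both droughts were set against the same 3 control libraries, so their differences are not independent of each other. A gene was called at an adjusted p under 0.05 (Benjamini-Hochberg over the 22080 genes tested) in the quasi-likelihood F test of edgeR. That test called 0.0% of all genes, and 0 of the 172 members, in each of the 4 comparisons (mild and severe drought against control, severe against mild, and both droughts against control). The lowest adjusted p of a member was 0.288 in mild drought, 0.214 in severe drought, 0.996 between the droughts and 0.198 for both droughts against control.

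DESeq2 on the same counts, genes and 9 libraries made calls, and 6 members were called in at least 1 comparison. In mild drought against control it called 2 members higher and 0 lower, against 0.548% and 0.394% of all genes. In severe drought it called 2 higher and 1 lower, against 0.761% and 0.765%. Both droughts against control gave 2 members higher and 3 lower, against 0.951% and 0.947%. Between severe and mild drought it called 0 members, against 0.0272% of genes higher and 0.077% lower. In the text below, rose and fell are used for the calls of DESeq2, and the difference in edgeR is given beside them.

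At an unadjusted p under 0.05 in edgeR, 5 members were higher and 15 lower in mild drought, against 3.34% and 3.07% of all genes.
In severe drought 8 were higher and 23 lower, against 4.02% and 4.65%. Both droughts against control gave 8 higher and 20 lower, against 3.92% and 4.82%, and severe against mild drought gave 3 higher and 8 lower, against 1.35% and 2.34%. The share of the 172 tested members at such a p was 2.91% higher and 8.72% lower in mild drought, and 4.65% higher and 13.4% lower in severe drought. Differences below 0 numbered 107 of 172 in mild drought, against 47.7% of all genes, and 110 of 172 in severe drought, against 52.0%. For both droughts against control they numbered 113, against 50.2%. Groups did not overlap in 7 members that were higher and 23 that were lower in mild drought, against 6.2% and 6.38% of all genes, and in 9 and 36 in severe drought, against 7.64% and 9.82%. The median log2 difference of the members was -0.12 in mild drought and -0.16 in severe drought, beside 0.02 and -0.02 over all genes.

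The sign of the differences is given by role, without a test between roles. CIPKs lay above 0 in 20 of 32 tested genes in mild drought (median 0.16) and in 22 of 32 in severe drought (median 0.22). The side of the CIPK median depended on the processing. In severe drought it was -0.15 on log2(FPKM + 1), with 13 of 32 above 0, and -0.21 on log2(FPKM + 0.1), with 12 of 32 above 0, beside -0.20 and -0.30 over all genes, and -0.022 without severe drought 3. For both droughts against control it was 0.17, and it was below 0 in 4 of 27 alternatives, down to -0.075. Calmodulin-binding proteins and calmodulin-regulated kinases lay below 0 in 29 of 35 genes in mild drought (median -0.31) and in 30 of 35 in severe drought (median -0.40). CDPKs were below 0 in 18 and 19 of 27 genes (medians -0.21 and -0.22). CBLs were below 0 in 6 and 7 of 8 genes (medians -0.21 and -0.16), and ATPases in 10 and 12 of 17 (medians -0.07 and -0.17). Glutamate receptors were below 0 in 11 and 14 of 18 genes (medians -0.15 and -0.29), although the mild drought median was above 0 in 1 of the alternatives. Calmodulin-like proteins showed no common side, with 13 and 9 of 22 genes below 0.

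**Figure D2:**
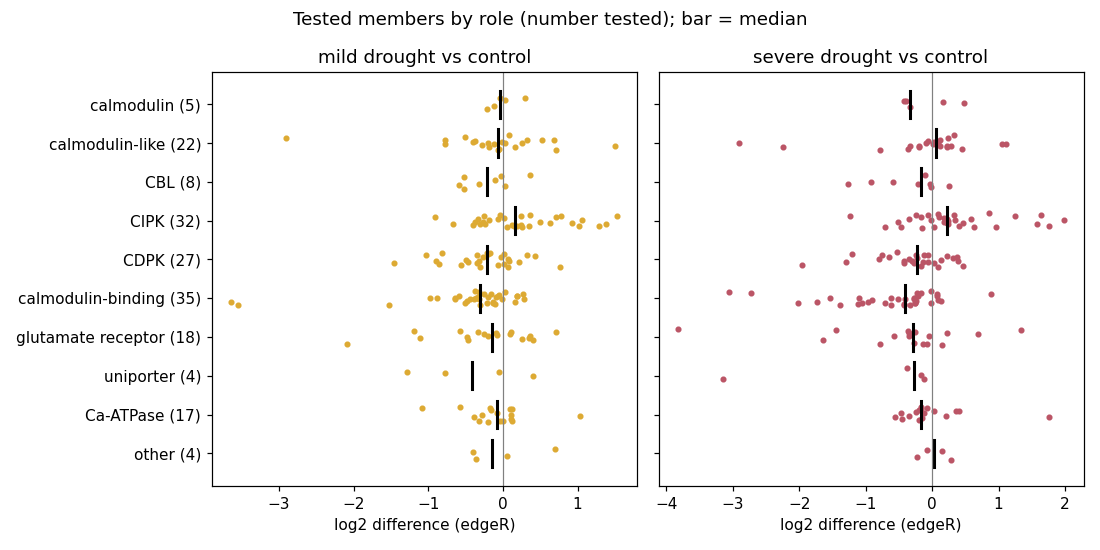
Log2 difference from control in edgeR of each of the 172 tested members, by role (number tested in brackets), in mild drought and in severe drought. Each point is a gene, the black bar is the median of the role and the grey line marks 0. The CIPK bars lie right of 0 (0.16 and 0.22) and those of the calmodulin-binding group left of it (-0.31 and -0.40).

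With all libraries, the members that DESeq2 called higher in drought were CIPKs. CIPK6 (SORBI_3007G140900, chromosome 7, 56993382 to 56998511) stood at 147, 102 and 184 CPM in the control libraries, 337, 303 and 479.5 in mild drought and 370.0, 395 and 522 in severe drought. All 6 drought libraries lay above all 3 control libraries, and the droughts overlapped each other. In DESeq2 it rose in mild drought (log2 difference 1.38 ± 0.30, adjusted p = 0.00182), in severe drought (1.58 ± 0.30, adjusted p = 7.73e-05) and in both droughts against control (adjusted p = 9.87e-06). The ratio of mean CPM to control was 2.59 in mild and 2.98 in severe drought. In edgeR the differences were 1.37 ± 0.29 and 1.57 ± 0.29 (SE), with adjusted p = 0.528 and 0.294.

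CIPK16 (SORBI_3002G203000, chromosome 2, 59318757 to 59320764) stood at 45.5, 37.2 and 42.4 CPM in the control libraries, 94.6, 93.8 and 115 in mild drought and 50.3, 69.4 and 73 in severe drought. The mild drought libraries lay above all others, and those of severe drought lay between control and mild drought without overlap. DESeq2 called it higher in mild drought (1.28 ± 0.21, adjusted p = 3.22e-06) and in both droughts against control (adjusted p = 9.95e-05). For severe drought alone the difference was 0.63 ± 0.21 (adjusted p = 0.119). Severe minus mild drought was -0.66 ± 0.19 in edgeR, with an unadjusted p = 0.00656 and an adjusted p = 0.996. Another gene with the name CIPK6, SORBI_3002G203100, lies next to CIPK16 on chromosome 2. It stood at 75.8, 47.6 and 45.2 CPM in the control libraries, 75.9, 78.6 and 107 in mild drought and 44, 27.1 and 80.7 in severe drought, and the 3 groups overlapped.

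CIPK14 (SORBI_3005G012000, chromosome 5, 1100643 to 1103491) was lower in level, at 1.88, 0.811 and 2.43 CPM in the control libraries, 1.54, 4.27 and 4.88 in mild drought and 7.58, 4.43 and 8.38 in severe drought. The severe drought libraries lay above the control libraries, while mild drought overlapped both. It rose in severe drought in DESeq2 (2.00 ± 0.57, adjusted p = 0.0366). That call was lost in 5 of 6 fits that left out a library of the comparison, and the adjusted p reached 0.201.

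With all libraries, other CIPKs were not called by either tool. One CIPK32 gene (SORBI_3005G024200) stood at 45.4, 45.3 and 45.1 CPM in the control libraries, 52.3, 52.8 and 69.1 in mild drought and 60.4, 54.3 and 72.4 in severe drought, with nearly equal control libraries and every drought library above them. Its edgeR difference in both droughts against control was 0.41 ± 0.15. The other CIPK32 gene (SORBI_3008G016200) ranged from 7.34 to 16.2 CPM in the control libraries, 17.4 to 18.7 in mild drought and 14.8 to 24.2 in severe drought. Its difference was 0.78 ± 0.28, and severe drought overlapped control. CIPK6, CIPK16 and SORBI_3005G024200 were the 3 members higher in all 6 drought libraries than in any control library. That is 1.74% of the 172 tested members, below the 2.37% of all genes. CIPK9 (SORBI_3001G523150) stood at 6.28, 8.55 and 10.1 CPM in the control libraries, 4.6, 5.41 and 5.68 in mild drought and 10.6, 8.25 and 10.5 in severe drought, lowest in mild drought, but it overlaps the other CIPK9 gene SORBI_3001G523200 and 20.3% of its counts were those of lncRNA transcripts.

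Of the CBL sensors that bind these kinases, 3 of 8 tested genes were lower at an unadjusted p under 0.05 in edgeR in severe drought, against 4.65% of all genes. In mild drought 0 of 8 were lower, against 3.07%, and none was called with all libraries. CBL5 (SORBI_3003G208400, chromosome 3, 53959655 to 53964864) stood at 8.4, 7.77 and 5.56 CPM in the control libraries, 6.78, 3.44 and 4.2 in mild drought and 4.15, 2.52 and 4.78 in severe drought. Severe drought lay below control, and mild drought overlapped both. The edgeR difference in severe drought was -0.92 ± 0.37, with an unadjusted p = 0.0337 and an adjusted p = 0.533. CBL4 (SORBI_3009G210300), the name of the sensor of sodium export in rice and Arabidopsis, was low throughout, at 1.57 to 2.49 CPM in the control libraries, 1.13 to 1.64 in mild drought and 0.592 to 1.12 in severe drought (edgeR difference in severe drought -1.27 ± 0.46, adjusted p = 0.508). CBL7 (SORBI_3004G130600) stood at 21.3 to 28.2 CPM in the control libraries, 19.6 to 32.2 in mild drought and 14.4 to 19.2 in severe drought, and it overlaps SORBI_3004G130500. CBL2, the highest CBL per length, ranged from 51 to 67.9 CPM in the control libraries, 24.9 to 52.7 in mild drought and 33.4 to 80.7 in severe drought, with overlap between all groups.

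**Figure D3:**
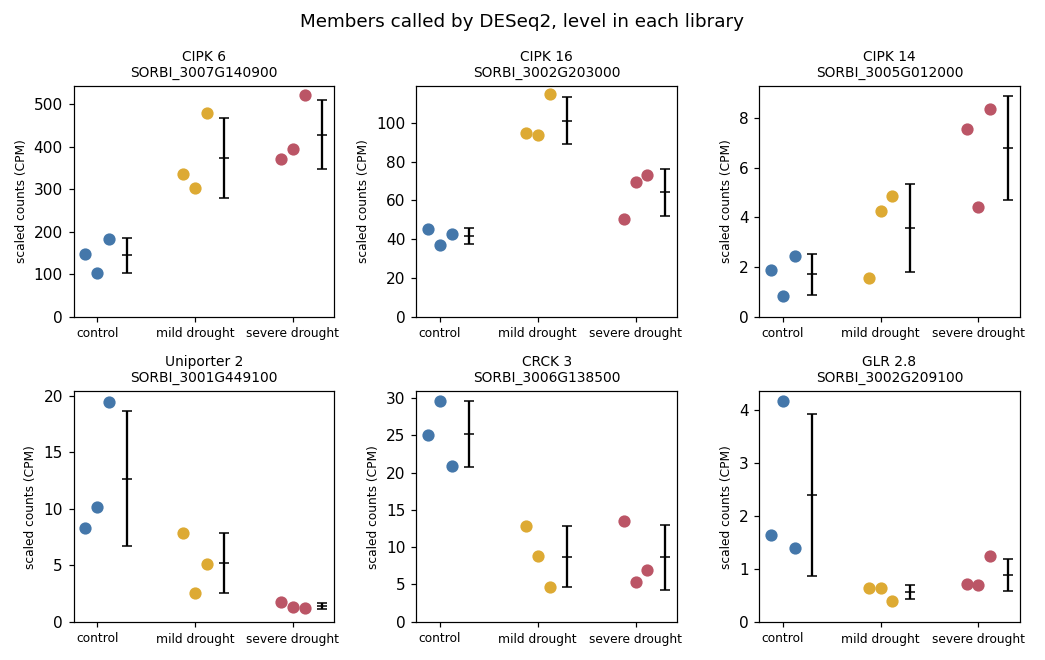
Scaled counts (CPM) in each of the 9 libraries for the 6 members called by DESeq2 with all libraries in any comparison, with the mean and SD of each group of 3 as a black bar. CIPK6 and CIPK16 have every drought library above every control library, CIPK14 only the severe ones, and uniporter 2, CRCK3 and GLR2.8 lie lower in drought.

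With all libraries, no CDPK was called by edgeR or DESeq2. At an unadjusted p under 0.05 in edgeR, 1 of 27 tested CDPKs was higher and 5 were lower in mild drought, against 3.34% and 3.07% of all genes. In severe drought 0 were higher and 3 lower, against 4.02% and 4.65%. CDPK18 (SORBI_3002G114800, chromosome 2, 14003613 to 14017732) stood at 26.1, 31.6 and 26.7 CPM in the control libraries, 17.4, 11.7 and 17.6 in mild drought and 19.2, 11 and 18.5 in severe drought. Every drought library lay below every control library. The edgeR difference for both droughts against control was -0.82 ± 0.22 (adjusted p = 0.316; in DESeq2 0.0627). CDPK4 (SORBI_3004G025000, chromosome 4, 2024674 to 2031337) stood at 35.4, 36.4 and 31.9 CPM in the control libraries, 28, 22.2 and 20.4 in mild drought and 30.8, 21.3 and 25 in severe drought, again with no drought library as high as a control library, and its difference was -0.49 ± 0.16. CDPK15 (SORBI_3009G249000) and CDPK22 (SORBI_3002G262800) had differences of -0.41 and -1.06.

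CDPK9 (SORBI_3001G132800, chromosome 1, 10464458 to 10469295) went the other way, at 11, 9.8 and 15.8 CPM in the control libraries, 23.5, 19.8 and 18.8 in mild drought and 14.8, 20.2 and 15.6 in severe drought. Mild drought lay above control, severe drought overlapped it, and the mild drought difference was 0.76 ± 0.23 (adjusted p = 0.625). CDPK13 (SORBI_3006G192500) stood at 127, 144 and 34.2 CPM in the control libraries, 38.6, 24.5 and 47.9 in mild drought and 45.2, 36.6 and 50.5 in severe drought. Control 1 and control 2 were high, while control 3, a library that stood apart, lay among the drought libraries. CDPK28, the highest CDPK per length, was at 84, 83.1 and 75.7 CPM in the control libraries, 57.7, 70.4 and 62.5 in mild drought and 87.4, 94.8 and 76 in severe drought. Mild drought lay below both control and severe drought, which overlapped each other. In total 6 of 27 tested CDPKs had every drought library below every control library, against 3.24% of all genes.

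Calmodulin genes showed no call by either tool with all libraries. The Calmodulin-1 gene SORBI_3003G125650, with the smallest p of the calmodulins, stood at 55.9, 47.9 and 44.2 CPM in the control libraries, 35.4, 49.3 and 43 in mild drought and 34.4, 35.5 and 47.8 in severe drought, and the groups overlapped (edgeR difference in both droughts -0.27 ± 0.17). Calmodulin-1 SORBI_3001G390300 was at 73, 74.6 and 59.5 CPM in the control libraries, 65.5, 76.4 and 111 in mild drought and 74.9, 74 and 139 in severe drought. Mild drought 3 and severe drought 3 were higher than the other libraries. Calmodulin-lysine N-methyltransferase (SORBI_3001G439300), which methylates calmodulin, ranged from 14 to 17.1 CPM in the control libraries, 8.2 to 18.3 in mild drought and 10.9 to 16.9 in severe drought, with overlap.

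Of the calmodulin-like proteins, CML45 (SORBI_3002G199500, chromosome 2, 58905215 to 58906639) had the smallest p. It stood at 17.7, 24 and 1.52 CPM in the control libraries, 4.76, 0.416 and 0.56 in mild drought and 6.97, 0.699 and 1.33 in severe drought. Controls 1 and 2 were high, whereas control 3 was at the level of the drought libraries. The edgeR difference in both droughts was -2.58 ± 1.02 (adjusted p = 0.517). CML27 (SORBI_3001G383800) was near the limit of detection, at 0.34 to 0.642 CPM in the control libraries, 0.185 to 0.88 in mild drought and 0 to 0.14 in severe drought, and it overlaps SORBI_3001G383700. CML29, the highest per length, ranged from 36.6 to 46.3 CPM in the control libraries, 23.6 to 45.2 in mild drought and 25.8 to 47.7 in severe drought, with overlap.

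Among calmodulin targets, all 7 CAMTA genes had a difference below 0 in mild drought and in severe drought, with medians of -0.32 and -0.40. The difference in both droughts against control is the mean of these, so it had to be below 0 as well (median -0.30). Of all genes, 47.7% were below 0 in mild drought and 52.0% in severe drought. With all libraries, no CAMTA gene was called by edgeR or DESeq2.
CAMTA3 (SORBI_3001G351700, chromosome 1, 64108477 to 64117857), whose Arabidopsis namesake holds back salicylic acid defence and takes part in cold responses, stood at 287, 333 and 155 CPM in the control libraries, 142, 144 and 106 in mild drought and 151, 81.1 and 141 in severe drought. Each drought library lay below each control library, with control 3 at about the upper end of drought. The edgeR difference in both droughts was -1.02 ± 0.28 (adjusted p = 0.326; DESeq2 adjusted p = 0.0526). A second CAMTA3 gene (SORBI_3001G261501, chromosome 1, 36154209 to 36162915) stood at 188, 183 and 156 CPM in the control libraries, 127, 118 and 144 in mild drought and 142, 115 and 137 in severe drought, again without overlap, and its difference was -0.43 ± 0.14. The CAMTA CBT gene (SORBI_3002G306000) lay below control in severe drought, at 51.8 to 59.5 CPM in the control libraries, 44.9 to 60.8 in mild drought and 37.9 to 49.2 in severe drought. A CAMTA4 gene (SORBI_3003G407200) ranged more widely in severe drought, at 19.5, 22 and 19.9 CPM in the control libraries, 18.2, 20.2 and 17.6 in mild drought and 8.67, 14.3 and 26 in severe drought. With control 3, mild drought 2 and severe drought 1 and 2 left out together, 7 of 7 CAMTA genes stayed below 0 in mild drought and 6 of 7 in severe drought, where 1 library then remained.

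Of the 7 calmodulin-binding receptor-like cytoplasmic kinases (CRCK), 7 were below 0 in mild drought and 6 in severe drought, with medians of -0.48 and -0.62. In the mean of both droughts against control 7 were below 0, with a median of -0.59. CRCK3 (SORBI_3006G138500, chromosome 6, 50077343 to 50082330), a kinase whose state is watched by an immune receptor in Arabidopsis, stood at 25, 29.6 and 20.8 CPM in the control libraries, 12.8, 8.76 and 4.6 in mild drought and 13.5, 5.36 and 7 in severe drought. All 6 drought libraries lay below all 3 controls, and the droughts overlapped each other. DESeq2 called it lower in both droughts against control (-1.54 ± 0.41, adjusted p = 0.0139), with adjusted p = 0.0858 in mild and 0.0601 in severe drought alone. The control mean was 2.9 times the drought mean. The call was lost without control 1 (adjusted p = 0.165) or control 2 (adjusted p = 0.219). In edgeR the difference was -1.53 ± 0.36 (adjusted p = 0.279).

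CRCK2 (SORBI_3001G503300) had 3 close control libraries, at 43.5, 43.8 and 43.2 CPM in the control libraries, 34.5, 20.9 and 27.9 in mild drought and 23.8, 21.1 and 40.1 in severe drought. All drought libraries lay below them, with severe drought 3 nearest, and its difference was -0.63 ± 0.23. A CRCK3 gene on chromosome 2 (SORBI_3002G173100) overlapped between groups, at 81.9 to 209 CPM in the control libraries, 41.8 to 194 in mild drought and 138 to 176 in severe drought. Among receptor kinases that bind calmodulin, CaMRLK (SORBI_3004G106200, chromosome 4, 10059386 to 10062522) stood at 18.9, 20.0 and 19.4 CPM in the control libraries, 13.8, 15.7 and 9.12 in mild drought and 14.2, 6.76 and 8.68 in severe drought. All drought values were below control, and the severe drought difference was -0.97 ± 0.31 (adjusted p = 0.447). Calcium/calmodulin-regulated receptor-like kinase 2 (SORBI_3010G118100) was at 13, 12.1 and 14.1 CPM in the control libraries, 15, 7.16 and 5.44 in mild drought and 4.76, 6.52 and 7.1 in severe drought. Severe drought lay below control, while mild drought 1 was the highest library of all 9.

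**Figure D4:**
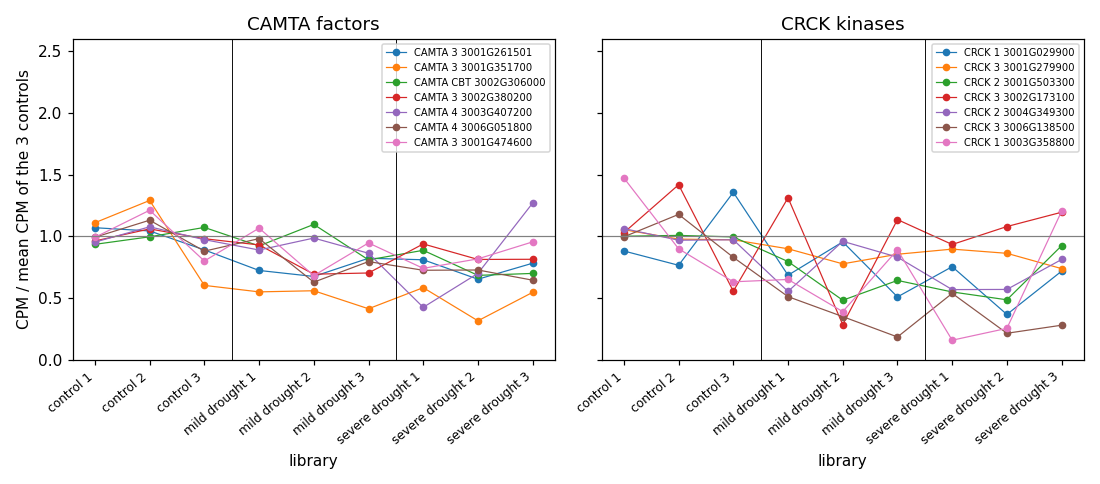
CPM in each library divided by the mean of the 3 controls, for the 7 CAMTA genes and the 7 CRCK genes; each line is a gene, and the vertical lines part control, mild drought and severe drought. The CAMTA3 gene SORBI_3001G351700 and the CRCK3 gene SORBI_3006G138500 lie lowest in drought, and a CAMTA4 gene and 2 CRCK genes exceed the control mean in severe drought 3.

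Calmodulin-binding protein 60 (CBP60) genes belong to a family with regulators of salicylic acid synthesis in Arabidopsis. Of 12 tested, 9 were below 0 in mild and 9 in severe drought, and none was called by either tool with all libraries. CBP60C (SORBI_3008G123100) stood at 57.4, 34.8 and 1.38 CPM in the control libraries, 6.71, 0.393 and 0.88 in mild drought and 9.25, 0.839 and 1.08 in severe drought. Control 1 and control 2 were far above the others, and control 3 was within the range of drought. A CBP60D gene (SORBI_3004G187000) was at 1.25, 0.913 and 4.31 CPM in the control libraries, 1.32, 5.36 and 0.64 in mild drought and 0.476, 0.186 and 0.296 in severe drought, lowest in severe drought. Another CBP60D gene (SORBI_3008G126200) was at 2.28, 5.61 and 5.25 CPM in the control libraries, 2.58, 5.2 and 4.36 in mild drought and 9.18, 5.27 and 9.81 in severe drought, with severe drought above mild drought. In total 8 of the 35 calmodulin-binding members had every drought library below every control library, against 3.24% of all genes, and 0 had every one above, against 2.37%.

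Of the transporters, DESeq2 with all libraries called a calcium uniporter and a glutamate receptor lower. Uniporter 2 (SORBI_3001G449100, chromosome 1, 72630740 to 72632041) stood at 8.32, 10.2 and 19.5 CPM in the control libraries, 7.88, 2.59 and 5.08 in mild drought and 1.73, 1.3 and 1.23 in severe drought. The severe drought libraries were the lowest, mild drought lay above them, and control lay above mild drought, with no overlap between any groups. In DESeq2 it fell in severe drought (-3.14 ± 0.52, adjusted p = 2.37e-06) and in both droughts against control (-2.21 ± 0.44, adjusted p = 1.55e-04). In mild drought alone the DESeq2 adjusted p was 0.313. The control mean of 12.7 ± 5.97 CPM (SD, n = 3) was 8.89 times the severe drought mean of 1.42 ± 0.271. In edgeR the severe drought difference was -3.14 ± 0.50 (adjusted p = 0.214), the lowest adjusted p of the members in that comparison.

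The other uniporter 2 gene (SORBI_3001G203200), which is higher per length, showed another order, at 45.5, 37.3 and 31.2 CPM in the control libraries, 53.1, 52.2 and 45.1 in mild drought and 31.7, 38.6 and 34.6 in severe drought. Mild drought lay near or above the highest control, and severe drought lay below mild drought without overlap. Severe minus mild drought was -0.52 ± 0.18 in edgeR (unadjusted p = 0.0172, adjusted p = 0.996). Uniporter 6 genes SORBI_3003G335300 and SORBI_3008G022600 had severe drought differences of -0.37 and -0.16. CIPK6, CIPK16 and uniporter 2 kept each of their DESeq2 calls when any single library was left out.

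Glutamate receptors are cation channels opened by amino acids, and those of clade 3 carry wound signals in Arabidopsis. GLR2.8 (SORBI_3002G209100, chromosome 2, 60098419 to 60106861) was low, at 1.64, 4.16 and 1.38 CPM in the control libraries, 0.63, 0.647 and 0.4 in mild drought and 0.714, 0.699 and 1.23 in severe drought. All drought libraries lay below the controls, of which control 2 was the highest. DESeq2 called it lower in both droughts against control (-1.77 ± 0.53, adjusted p = 0.0473). That call was lost in 7 of the 9 fits that left out a library, with adjusted p up to 0.585. Its neighbour GLR2.9 (SORBI_3002G209200) was at 5.75, 5.37 and 3.32 CPM in the control libraries, 4.29, 0.624 and 1.44 in mild drought and 1.6, 1.68 and 1.33 in severe drought, with severe drought below control. Another GLR2.8 gene, on chromosome 4 (SORBI_3004G324000), was higher in severe drought, at 3.58, 6.96 and 3.16 CPM in the control libraries, 7.82, 3.14 and 7.12 in mild drought and 8.29, 17.8 and 8.63 in severe drought, with an edgeR difference of 1.34 ± 0.49 and an adjusted p = 0.508.

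Both GLR2.8 and GLR2.9 of chromosome 2 lie in a run of 9 clade 2 genes within positions 59997622 to 60117238. Levels along it ran from no count at GLR2.6 (SORBI_3002G208800) to 10.2 to 22.8 CPM at GLR2.2 (SORBI_3002G208700). GLR2.5 (SORBI_3002G209000) stood at 9.78, 11.5 and 12.7 CPM in the control libraries, 11.7, 13.4 and 11.6 in mild drought and 1.02, 9.69 and 9.17 in severe drought, so that severe drought 1 alone was low. Reads of such near copies may be shared or lost in counting. The 3 receptors above 10 FPKM were of clade 3: GLR3.5 (SORBI_3010G231300), a GLR3.1 gene (SORBI_3006G193200) and a GLR3.4 gene (SORBI_3010G231500). GLR3.5 ranged from 247 to 445 CPM in the control libraries, 166 to 341 in mild drought and 282 to 289.6 in severe drought and overlapped between groups.

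Calcium pumps were not called by edgeR or DESeq2 with all libraries. Plasma membrane ATPase 5 (SORBI_3006G206800, chromosome 6, 55637554 to 55650428) stood at 20.0, 19.2 and 12.3 CPM in the control libraries, 30.9, 28.1 and 46.6 in mild drought and 19.2, 30.2 and 126 in severe drought. Mild drought lay above control, severe drought 1 was within the range of control, and severe drought 3 was far above all others. The edgeR difference in both droughts was 1.40 ± 0.57 (adjusted p = 0.529). ATPase 3 of the endoplasmic reticulum type (SORBI_3001G103300, chromosome 1, 7907267 to 7928278) was at 22.5, 21.9 and 18.5 CPM in the control libraries, 24.6, 23.9 and 19.7 in mild drought and 16.2, 14.5 and 12 in severe drought. Severe drought lay below both other groups, by -0.56 ± 0.19 against control and -0.67 ± 0.19 against mild drought (adjusted p = 0.462 and 0.996). A probable plasma membrane ATPase 9 (SORBI_3005G028400) was lower in mild drought, at 79.4, 84.1 and 57.5 CPM in the control libraries, 43.4, 24.4 and 37 in mild drought and 109.8, 36.4 and 47 in severe drought, and severe drought 1 was the highest library. ATPase 10, the highest pump per length, ranged from 121 to 184 CPM in the control libraries, 99.4 to 161 in mild drought and 117 to 149.9 in severe drought, with overlap.

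Severe and mild drought were also compared directly. With all libraries, DESeq2 and edgeR called 0 members. The differences of 87 members were below 0, against 53.8% of all genes, and 7 members lay higher and 13 lower without overlap, against 2.99% and 4.83% of all genes. The smallest p among them belonged to uniporter 2 (SORBI_3001G449100, severe minus mild -1.86 ± 0.48, unadjusted p = 0.00397, adjusted p = 0.996). CIPK16, the uniporter 2 gene SORBI_3001G203200 and ATPase 3 were lower in severe than in mild drought, and CIPK9 (SORBI_3001G523150, 0.90 ± 0.25) and CDPK28 (0.44 ± 0.15) were higher.

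**Figure D5:**
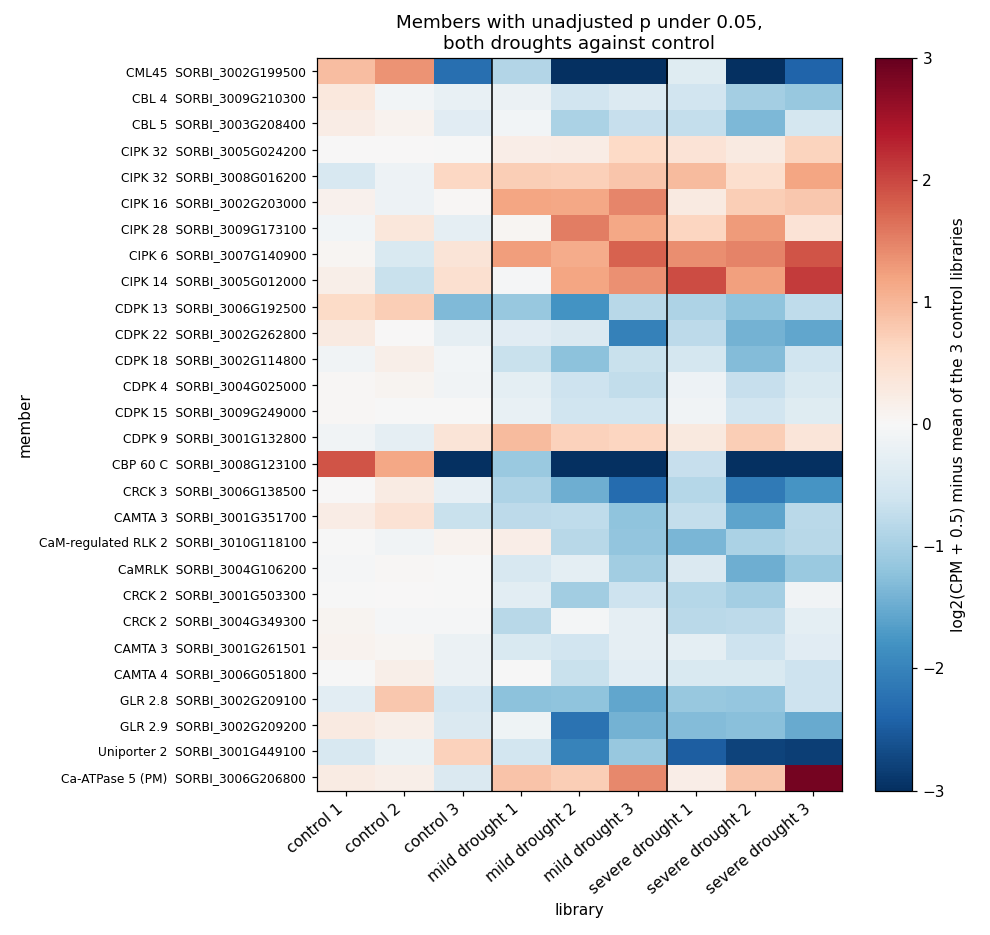
Log2(CPM + 0.5) of each library minus the mean of the 3 controls, for the 28 members at an unadjusted p under 0.05 in both droughts against control (8 higher, 20 lower); colours are held at 3 and -3, and lines part control, mild drought and severe drought. The CIPK rows are red in most drought libraries, most other rows are blue, and CML45, CDPK13 and CBP60C are blue in control 3 as well.

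The calls were repeated without control 3, mild drought 2 and severe drought 1 and 2, which leaves 2 control, 2 mild drought and 1 severe drought library and assumes that the lone library varies like the others. This choice was made after the data were seen and from the same expression values. Taking out libraries that stood apart can narrow the spread within groups. The adjusted p-values and counts of these fits are therefore described only and are not support for the calls. DESeq2 then called 15 members in both droughts against control, 5 higher and 10 lower, against 2.05% and 2.47% of all genes. In mild drought it called 5 higher and 6 lower, against 1.3% and 1.55%, and in severe drought 4 higher and 8 lower, against 1.83% and 1.88%. Between the droughts it called 1 higher and 1 lower, against 0.553% and 0.331%. The 5 called higher in both droughts were CIPK6 (adjusted p = 4.50e-10), CIPK16 (2.43e-04), CIPK32 (SORBI_3008G016200, 5.65e-04), CIPK29 (SORBI_3002G417201, 0.0495) and ATPase 5 (4.94e-09). Among kinases and transporters, those called lower were CDPK13 (1.79e-09), CDPK17 (SORBI_3008G015600, 0.0282), CRCK3 (0.00400), ATPase 9 (SORBI_3005G028400, 0.00140) and uniporter 2 (0.00469). The others called lower were CAMTA3 (SORBI_3001G351700, 8.12e-06), CML45 (1.28e-04), CBP60B (SORBI_3003G083200, 0.00999), CBP60C (0.00452) and CBP60D (SORBI_3007G107600, 0.0439). CDPK9 was called higher in mild drought alone (0.0417), and between the droughts ATPase 5 was called higher (7.39e-04) and uniporter 2 lower (0.0151) in severe drought. Some of these calls depend on the libraries left out. For CDPK13, CML45 and CBP60C, control 3 lay within the range of the drought libraries. For ATPase 9 (SORBI_3005G028400), severe drought 1 was the highest library. For CAMTA3 (SORBI_3001G351700), control 3 was the lowest control and lay just above the highest drought library. For CIPK32 (SORBI_3008G016200), severe drought overlapped control with all libraries. The levels of CBP60B (SORBI_3003G083200) in single libraries are not given here. None of these genes was called with all libraries. Several other calls rest on few counts. CDPK17 stood at 0.235 to 2.04 CPM in the control libraries, 0.231 to 1.4 in mild drought and 0 to 0.839 in severe drought. CBP60D (SORBI_3007G107600) stood at 0 to 1.38 CPM in the control libraries, 0 to 0.139 in mild drought and 0.0932 to 0.408 in severe drought. CIPK29 was at 1.38, 1.96 and 0.967 CPM in the control libraries, 1.89, 3.4 and 3.44 in mild drought and 1.16, 1.63 and 10.7 in severe drought, and its severe drought value is that of severe drought 3, the highest library. In edgeR ATPase 5 was the 1 member called, in severe drought against control, with an adjusted p = 0.0499, against 0.0861% of all genes called higher, and the severe drought value there is that of severe drought 3 alone. CIPK14 and GLR2.8 were not called, with adjusted p = 0.0899 in severe drought and 0.224 in both droughts.

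Other genes of calcium signalling were taken by name: annexins, pore channels of the vacuole, osmotically gated channels, exchangers, anion channels, NADPH oxidases, calreticulin and others. Of 92, 69 were tested. In edgeR 0 were called. At an unadjusted p under 0.05, 3 were higher and 0 lower in mild drought (4.35% of the 69 higher), against 3.34% and 3.07% of all genes, and 8 were higher and 5 lower in severe drought (11.6% and 7.25%), against 4.02% and 4.65%. DESeq2 called 1 higher in mild drought, 3 in severe drought and 3 in both droughts against control, and 0 lower in each. All genes were called higher in 0.548%, 0.761% and 0.951% and lower in 0.394%, 0.765% and 0.947%, in the same order. Annexin D7 (SORBI_3004G232300, chromosome 4, 58134196 to 58136757), of a family that binds membranes in the presence of calcium, stood at 5.25, 1.42 and 4.65 CPM in the control libraries, 9.23, 25.6 and 23.2 in mild drought and 18.7, 26.8 and 43.3 in severe drought. All drought libraries lay above all controls. It rose in both droughts in DESeq2 (2.67 ± 0.49, adjusted p = 3.47e-05), and the mean ratio to control was 5.13 in mild and 7.85 in severe drought. It was called in severe drought and in both droughts in each fit that left out a library, while its mild drought call was lost in 3 of 6 (without control 2, mild drought 2 or mild drought 3).

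The vacuolar pore channel TPC1 (SORBI_3003G256100, chromosome 3, 59423752 to 59439954), which lets cations out of the vacuole, stood at 61.2, 53.1 and 54.2 CPM in the control libraries, 70.3, 98.6 and 93.9 in mild drought and 90.2, 109 and 85.7 in severe drought, without overlap between control and drought. It rose in severe drought (DESeq2 0.76 ± 0.20, adjusted p = 0.0163) and in both droughts (adjusted p = 0.00642). The call in both droughts was lost without control 1, 2 or 3 (adjusted p up to 0.149) and that in severe drought in 5 of 6 fits that left out a library (up to 0.2). The third gene called, the sodium/calcium exchanger NCL2 (SORBI_3004G108100), was named after its values were seen. NCL2 was at 0, 0.203 and 0.522 CPM in the control libraries, 0.693, 1.71 and 0.64 in mild drought and 3.37, 2.61 and 2.66 in severe drought. Its DESeq2 adjusted p in severe drought was 0.0189, a call lost in 4 of 6 such fits. In both droughts it was 0.0430, a call lost in 8 of 9 fits that left out a library (up to 0.275). Annexin D5 (SORBI_3007G131900) ranged from 46.1 to 67.4 CPM in the control libraries, 65.4 to 97.7 in mild drought and 73.4 to 93.5 in severe drought and was not called with all libraries, and neither was the anion channel SLAH1 (SORBI_3003G000400), at 0.522 to 1.3 CPM in the control libraries, 0.063 to 0.84 in mild drought and 0 to 0.0932 in severe drought.

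Some members cannot be measured free of their neighbours. Of the 219, 33 overlap another gene in the deposited positions, and 55 lie in 22 groups of genes of the same role within 50000 bases of each other. Under 21 members, 25 lncRNA transcripts carried the same identifier (14 of the class AS, 6 IT and 5 OT, not interpreted here), with a median of 5.88% of the gene's counts. They held over 50% in 4: GLR2.7 (SORBI_3004G118000, 98.4%), a calmodulin-like protein 2 gene (SORBI_3005G024300, 83.8%) and the GLR2.8 genes SORBI_3002G208900 (80.5%) and SORBI_3002G208500 (68.2%). None of the 6 members called by DESeq2 with all libraries overlaps another gene, and GLR2.8 (SORBI_3002G209100) alone among them held lncRNA counts (5.88%).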

How the data were processed

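Total RNA of 9 leaf libraries was measured, 3 each in control, mild drought and severe drought, grouped by their labels. The authors deposited read counts per gene and per lncRNA transcript, as whole numbers, and FPKM per gene, in separate tables per the file headers. HISAT2 2.0.4, STAR and StringTie 1.3.3b are named in the submitters' processing notes, with no role given. The genome build and whether counting used strand are not given in the sources used here, and positions are those of the deposited tables. Only the 34366 genes of the mRNA FPKM table were used. Counts of a gene include those of lncRNA transcripts with its identifier.

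R 4.3.3 with edgeR 4.0.16 was used to fit quasi-likelihood models to all 9 libraries with no covariate, after filterByExpr and TMM scaling, which left 22080 genes. Benjamini-Hochberg adjustment ran over all of them. The SE beside an edgeR difference was the absolute difference divided by the square root of the F statistic, because that test gives no SE. The SE beside a DESeq2 difference was that given by the tool. The comparisons were mild and severe drought against control, severe against mild drought, and the mean of both droughts against control. The common biological coefficient of variation was 0.503, so the spread between libraries, not counting error, set the precision for all but the lowest genes. The tests were also run on simulated counts, drawn independently for each gene and library. Such counts hold no split of libraries like that on the first principal component, and the outcome is not used here. Alternatives were DESeq2 1.42.0, RLE scaling, no filter, only the groups compared, a replicate block, subtraction of lncRNA counts, limma 3.58.1 on log2(FPKM + 1) and log2(FPKM + 0.1), each library left out, and, added after the data were seen, DESeq2 with libraries left out and both tools without the 4 libraries apart on the first principal component. Tables were joined with pandas 2.3.3 in Python 3.11.15.

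Named genes were, per comparison, those called, then up to 10 with the smallest unadjusted p under 0.05 whose groups did not overlap in CPM; per role, the highest in FPKM and the smallest p in both droughts; and 4 other pathway genes with the smallest p. Further genes, such as the rest of the CAMTA and CRCK families, some CIPKs, CDPKs, CBLs, glutamate receptors and pumps, and those with lncRNA counts, were named after their values were seen. Members, lists and tests were chosen with earlier results of these data known. No sequences are shown, and a table of RefSeq names was not used because its identifiers could not be matched.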

Additional observations from a re-analysis of the deposited data

How the results depend on the processing

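The count of members called, 0 in edgeR in each comparison, stayed 0 with RLE scaling, no filter, only the groups compared (a fit that does not exist for both droughts against control), lncRNA counts subtracted, limma on FPKM and each library left out. DESeq2 gave 2, 3, 0 and 5 in mild and severe drought, between droughts and in both droughts. The share of all genes is not given for the counts below with 1 library left out, limma or the replicate block. A change in those counts is therefore not read as particular to the members. Leaving out 1 library moved the DESeq2 count to 2 to 8 in mild drought (8 without control 3 or mild drought 1), 2 to 7 in severe drought (7 without control 3 or severe drought 1), 0 to 1 between droughts (1 without mild drought 2) and 3 to 11 in both droughts (3 without control 1, 11 without control 3). Without the 4 libraries apart on the first principal component, DESeq2 called 11, 12, 2 and 15 members and edgeR 1 in severe drought, and the median between droughts was -0.14. Members at an unadjusted p under 0.05 in edgeR ranged over left-out libraries from 9 to 26 in mild drought (9 without control 2). They ranged from 16 to 28 in severe drought (16 without control 1) and from 12 to 34 in both droughts (12 without control 2). Each count was thus lowest without control 1 or control 2, in a fit that also had fewer control libraries. On limma with log2(FPKM + 1) and log2(FPKM + 0.1), the members' median was -0.34 and -0.48 in severe drought (all genes -0.20 and -0.30), -0.20 and -0.28 between droughts (all genes -0.22 and -0.30), and -0.24 and -0.32 in both droughts (all genes -0.09 and -0.15), and 17 and 18 members passed unadjusted between droughts, against 11 in edgeR. The deviations of same-numbered libraries from their group means had correlations of -0.37 to 0.37, and those of differently numbered libraries -0.42 to 0.55. Since the split on the first principal component crosses the numbers, these values cannot decide whether the numbers pair the samples. With the replicate block 0 members were called and 20, 26, 10 and 27 passed unadjusted. Over 49 log2 differences of named genes and 772 values under the alternatives other than DESeq2 with libraries left out, 760 kept direction and side of the threshold, 12 passed it (all in DESeq2 with all libraries) and 0 reversed. Set against DESeq2 with all libraries, DESeq2 without 1 library gave 348 values of these differences, of which 18 newly passed the threshold, 17 lost it and 0 reversed. Without the 4 libraries it gave 48 values, of which 10 newly passed, 3 lost it (CIPK14, GLR2.8 and TPC1) and 0 reversed; those that newly passed were CAMTA3 in 3 comparisons, CRCK3 in mild and in severe drought, and CDPK9, CML45, ATPase 5, uniporter 2 and annexin D5 in 1 each. GLR2.8 (SORBI_3002G209100) held 10 to 123 counts per library, a counting error of at most 0.316 of the value. That is below the common coefficient of variation of 0.503. The latter is over all genes tested and is not the spread of GLR2.8 itself. CML27 held 0 to 3 counts in severe drought, where counting error is larger than 0.503.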
